A study of Homo sapiens with 4 samples.

Results

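The genes described here are the human microRNA (miRNA) genes and the long noncoding RNA (lncRNA) genes named as their hosts, 2000 of the 59679 RefSeq genes on chromosomes 1 to 22, X and Y of GRCh38. Of them, 1913 have the biotype miRNA. The other 87 are lncRNA genes whose symbols start with MIR and end with HG, for host gene. The miRNA genes were taken in 2 classes by position: 1204 lay wholly inside a protein-coding gene and 709 did not, 11 of which overlapped one in part. A RefSeq miRNA gene spans the hairpin of the precursor, with a median length of 80 bp (range 41 to 180 bp). A miRNA gene was counted as having a peak when a CUT&Tag peak overlapped it by at least 1 bp, and a host gene when a peak overlapped it or the 1 kb beyond either boundary.

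The peaks come from CUT&Tag of CHAF1A in RBE, a cultured cell line from a human cholangiocarcinoma of the bile ducts inside the liver. CHAF1A is the largest subunit of CAF-1, the chaperone that deposits new histones during DNA replication, and CUT&Tag cuts and tags the DNA at the places where an antibody against it is bound. Cells were transfected either with an siRNA against CHAF1A (si-CHAF1A, 2 samples) or with a control siRNA (si-Ctrl, 2 samples), and both groups were harvested 48 hours later. No other genotype, agent or time was used in these groups, and both received the same transfection.

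miRNAs are short RNAs that guide Argonaute proteins to messenger RNAs and lower their output. A primary transcript folds into hairpins, the DROSHA and DGCR8 complex releases each hairpin in the nucleus, XPO5 exports it and DICER1 cuts out the mature miRNA. Bases 2 to 8 of the mature miRNA, its seed, do most of the target pairing. Many hairpins sit in introns of protein-coding genes and are made from the same primary transcript, while others come from lncRNA hosts or from a start of their own, which can lie far upstream. In liver and bile duct tumours, miRNAs such as miR-155, miR-210 and the let-7 family are well studied.

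One peak list was analysed for each group, in which the 2 samples of that group cannot be told apart. No difference between the lists therefore has a replicate check, no p-value is given, and the 95% exact binomial (Clopper-Pearson) intervals of shares cover counting error only. The si-CHAF1A list held 97653 peaks covering 43.1 Mb and the si-Ctrl list 76313 peaks covering 32.1 Mb. The most frequent local background, in reads, was 8.49 in the si-CHAF1A list and 6.34 in the si-Ctrl list, so the amount of data behind the lists differed. With each list held to its strongest 76313 peaks, miRNA genes with a peak numbered 161 in the si-CHAF1A list and 154 in the si-Ctrl list, and those in one list only 54 (si-CHAF1A) and 47 (si-Ctrl), against 60 (si-CHAF1A) and 40 (si-Ctrl) with all peaks. This evens the number of peaks and not the depth, whose part in the differences was not tested. Fold enrichment (pileup over local background at the summit) and −log10 q, the strength of the call, are the authors' values for each peak. Both depend on the depth of their own list, so they are given side by side and are not read as more or less binding. The lists hold no measure of the amount of CHAF1A or of any RNA, so neither the knockdown nor the cell type label could be checked on expression.

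The mature sequences below belong to miRNA genes on which the results turn: hairpins under the strongest peaks at starts, hairpins that share a seed and a peak, and known miRNAs called in only one list. They are RefSeq sequences on GRCh38.p14, written 5′ to 3′, with the seed in capitals.
hsa-miR-423-5p: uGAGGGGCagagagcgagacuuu
hsa-miR-3184-5p: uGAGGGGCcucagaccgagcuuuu
hsa-miR-1908-5p: cGGCGGGGacggcgauugguc
hsa-miR-663a: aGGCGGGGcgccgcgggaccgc
hsa-miR-762: gGGGCUGGggccggggccgagc
hsa-miR-933: uGUGCGCAgggagaccucuccc
hsa-miR-4449: cGUCCCGGggcugcgcgaggca
hsa-miR-484: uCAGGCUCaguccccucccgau
hsa-miR-3180-3p: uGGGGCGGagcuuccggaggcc
hsa-miR-3196: cGGGGCGGcaggggccuc
hsa-miR-941: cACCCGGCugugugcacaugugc
hsa-miR-210-3p: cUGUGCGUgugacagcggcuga
hsa-miR-25-3p: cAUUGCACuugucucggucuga
hsa-let-7i-5p: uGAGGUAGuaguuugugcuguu
hsa-miR-155-5p: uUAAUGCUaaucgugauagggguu
miR-3196, miR-25-3p and let-7i-5p come from hairpins with a peak in the si-CHAF1A list only, miR-155-5p from one with a peak in the si-Ctrl list only, and the others from hairpins with a peak in both lists. Most of the seeds printed here from hairpins in both lists consist largely of G and C. These sequences were chosen, and the share among all such seeds was not computed.

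Most hairpins lay under no peak: 1699 of the 1913 miRNA genes had none in either list. A peak overlapped 174 miRNA genes in the si-CHAF1A list (9.1%, interval 7.84 to 10.5%) and 154 in the si-Ctrl list (8.05%, interval 6.87 to 9.36%). Among all 80 bp windows of these chromosomes, 1.82% overlapped a peak in the si-CHAF1A list and 1.37% in the si-Ctrl list. The share of miRNA genes was therefore above that of windows in both lists, beyond counting error. The calls fell at 199 of 1597 miRNA loci (hairpins under 10 kb apart count as one locus), so they were not made by a few clusters.

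Both lists had a peak over 114 miRNA genes. A further 60 were covered in the si-CHAF1A list only (3.14%), where 0.979% of windows were, and 40 in the si-Ctrl list only (2.09%), where 0.523% of windows were. Both shares were above those of windows, beyond counting error (intervals 2.4 to 4.02% for si-CHAF1A only and 1.5 to 2.84% for si-Ctrl only). Of other small RNA genes, 2.67% of 1199 snoRNA genes had a peak in the si-CHAF1A list and 1.42% in the si-Ctrl list. The corresponding shares of 154 snRNA genes, which as a class have promoters of their own, were 27.9% in the si-CHAF1A list and 33.8% in the si-Ctrl list. miRNA genes therefore lay between these classes in both lists.

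Inside protein-coding genes, 104 miRNA genes had a peak in the si-CHAF1A list (8.64%, interval 7.11 to 10.4%) and 80 in the si-Ctrl list (6.64%, interval 5.3 to 8.2%). Of windows inside such genes, 2.13% had a peak in the si-CHAF1A list and 1.55% in the si-Ctrl list. Outside protein-coding genes, 70 had a peak in the si-CHAF1A list (9.87%, interval 7.78 to 12.3%) and 74 in the si-Ctrl list (10.4%, interval 8.28 to 12.9%), against 1.57% (si-CHAF1A) and 1.22% (si-Ctrl) of windows outside. The intervals of the inside and outside classes overlap in the si-CHAF1A list and lie just apart in the si-Ctrl list. For peaks in one list only, the inside class held 45 in the si-CHAF1A list and 21 in the si-Ctrl list, and the outside class 15 in the si-CHAF1A list and 19 in the si-Ctrl list. Of windows inside genes, 1.17% had a peak in the si-CHAF1A list only and 0.59% in the si-Ctrl list only, and of those outside 0.825% in the si-CHAF1A list only and 0.468% in the si-Ctrl list only. Windows thus had more peaks in the si-CHAF1A list only in both classes, and hairpins in the inside class alone. Whether the 2 classes differ in this was not tested.

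Hairpins inside genes were also split by orientation, and the intervals of the shares overlap. Of 745 hairpins on the strand of the gene around them, 64 had a peak in the si-CHAF1A list (8.59%) and 50 in the si-Ctrl list (6.71%). Of 139 on the opposite strand, 12 had one in the si-CHAF1A list (8.63%) and 8 in the si-Ctrl list (5.76%). For the other 320 the strand of the hairpin or of the gene was not used here.

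Hairpins near gene starts had a peak more often than hairpins far from one. Of 186 hairpins with their centre within 1 kb of an annotated start, 64 had a peak in the si-CHAF1A list (34.4%, interval 27.6 to 41.7%) and 61 in the si-Ctrl list (32.8%, interval 26.1 to 40%). Of windows equally close to a start, 16.2% had a peak in the si-CHAF1A list and 14.2% in the si-Ctrl list. Hairpins 1 to 5 kb away gave 8.88% of 304 in the si-CHAF1A list and 5.26% in the si-Ctrl list, against 2.33% (si-CHAF1A) and 1.61% (si-Ctrl) of windows. Those 5 to 50 kb away gave 6.21% of 886 in the si-CHAF1A list and 5.53% in the si-Ctrl list, against 1.86% (si-CHAF1A) and 1.32% (si-Ctrl) of windows. Beyond 50 kb the shares were 3.8% of 447 in the si-CHAF1A list and 4.25% in the si-Ctrl list, against 1.05% (si-CHAF1A) and 0.787% (si-Ctrl) of windows. At each distance the share of hairpins was thus above that of windows. Had each class of distance and location had the share of its windows, 60.0 miRNA genes would have had a peak in the si-CHAF1A list and 47.3 in the si-Ctrl list. These numbers leave out hairpins without a distance, such as those on chromosome 8. Among all miRNA genes 174 (si-CHAF1A) and 154 (si-Ctrl) had a peak, so setting these counts against them overstates the excess. A distance was known for 203 of the 214 miRNA genes with a peak in either list and 1620 of the 1699 with none. The windows were not matched to hairpins for their content of G and C, whose part in this excess was not tested. The 37508 starts used belong to protein-coding and lncRNA genes with a known strand, some of which have several. A hairpin near another start can therefore stand in too distant a class. No start on chromosome 8 was used, so its hairpins are in no class of distance. All its windows stand in the class beyond 50 kb.

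**Figure D1:**
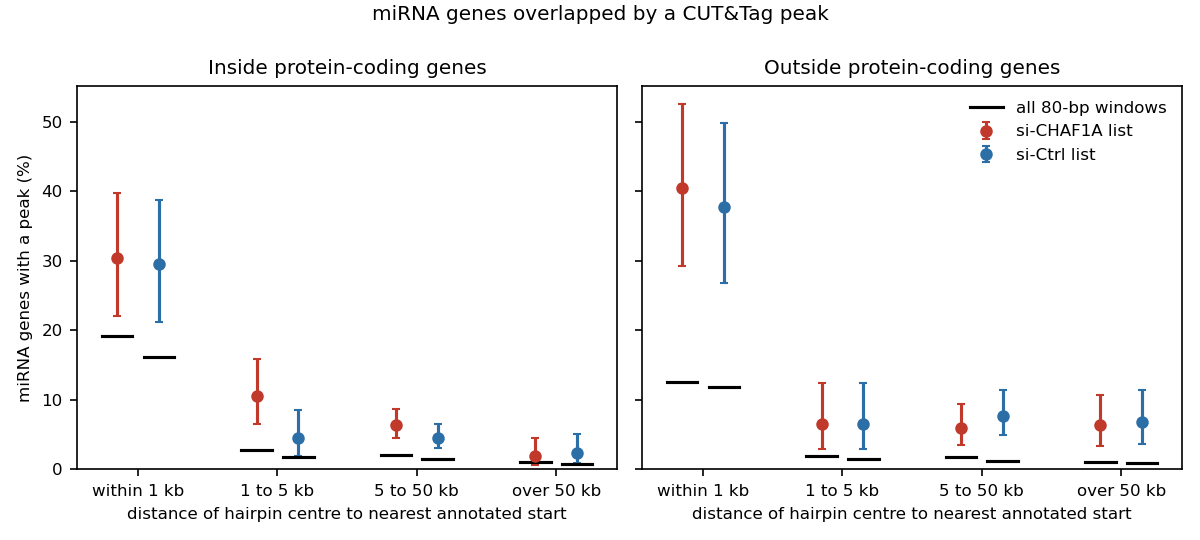
Share of miRNA genes with a peak (%, vertical axis) by distance of the hairpin centre to the nearest annotated start, inside (left panel) and outside (right panel) protein-coding genes. Hairpins on chromosome 8, without a distance, are left out, and its windows count as over 50 kb. Points are shares in the si-CHAF1A list and the si-Ctrl list, bars are 95% exact binomial intervals, and short black lines are the shares of all 80 bp windows of the same class; within 1 kb of a start, 40.5% of hairpins outside genes had a peak in the si-CHAF1A list and 37.8% in the si-Ctrl list, against 12.6% (si-CHAF1A) and 11.8% (si-Ctrl) of windows.

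The class with the widest gap between the lists, picked after the values were seen, was that of hairpins inside genes, 1 to 5 kb from a start. Of 181 such hairpins, 19 had a peak in the si-CHAF1A list (10.5%, interval 6.44 to 15.9%) and 8 in the si-Ctrl list (4.42%, interval 1.93 to 8.52%), and the intervals overlap. In this class 14 were covered in the si-CHAF1A list only and 3 in the si-Ctrl list only, where windows gave 1.64% (si-CHAF1A only) and 0.699% (si-Ctrl only). The plot of shares by distance shows the 2 lists close together in the other classes.

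Hairpins rich in G and C had a peak more often than others. Hairpin sequences were matched for 1560 miRNA genes. Under 40% GC, 2 of 265 hairpins had a peak in each list (0.755%). Between 40 and 50%, the count was 6 of 427 in the si-CHAF1A list (1.41%) and 7 in the si-Ctrl list (1.64%). Between 50 and 60% it was 30 of 459 in each list (6.54%). Between 60 and 70% it was 55 of 274 in the si-CHAF1A list (20.1%, interval 15.5 to 25.3%) and 43 in the si-Ctrl list (15.7%, interval 11.6 to 20.6%). At 70% GC or more it reached 50 of 135 in the si-CHAF1A list (37.0%, interval 28.9 to 45.8%) and 45 in the si-Ctrl list (33.3%, interval 25.5 to 42.0%). The share grew from class to class above 50% GC in both lists.

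**Figure D2:**
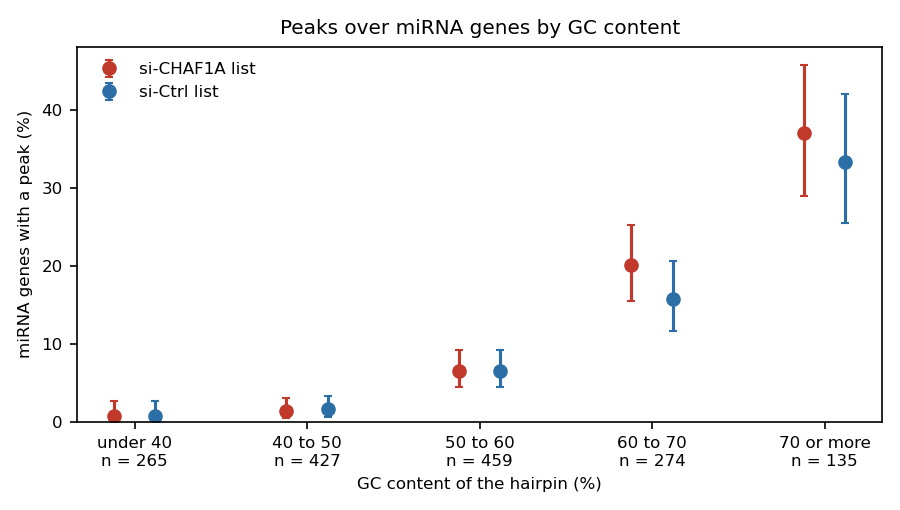
Share of miRNA genes with a peak (%, vertical axis) in 5 classes of GC content of the hairpin (horizontal axis, number of hairpins below each class), for the si-CHAF1A list and the si-Ctrl list with 95% exact binomial intervals. The points climb from 0.755% in both lists at under 40% GC to 37.0% in the si-CHAF1A list and 33.3% in the si-Ctrl list at 70% or more.

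Hairpins near a start and hairpins rich in GC had peaks more often within most classes of the other property, but not beyond counting error in all. Among hairpins within 1 kb of a start, a peak in either list was found over 52 of 90 with at least 60% GC (57.8%), 12 of 48 with 50 to 60% and 2 of 32 with less (6.25%). Farther from a start the counts were 71 of 319 (22.3%), 28 of 411 (6.81%) and 12 of 660 (1.82%). Below 50% GC the interval near a start, 0.766 to 20.8%, overlaps that of 0.943 to 3.15% farther away. Near a start it also overlaps that of the class with 50 to 60% GC, 13.6 to 39.6%. The median GC content was 65.3% for hairpins with a peak in either list and 50% for hairpins with none.

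The numbering of miRNAs roughly follows the order in which they were described. Among the 638 let-7 genes and genes with a name number under 1000, 38 had a peak in the si-CHAF1A list (5.96%) and 34 in the si-Ctrl list (5.33%). Among the 1275 with higher numbers the counts were 136 in the si-CHAF1A list (10.7%) and 120 in the si-Ctrl list (9.41%). Without the hairpins known to lie within 1 kb of a start, the shares kept this order. They were 4.11% of 584 low numbers and 7.52% of 1143 high numbers in the si-CHAF1A list. In the si-Ctrl list they were 3.6% of low numbers and 6.3% of high numbers. These sets keep the hairpins without a distance, such as those on chromosome 8, which may lie near a start. There the intervals lie just apart in the si-CHAF1A list (2.65 to 6.05% and 6.06 to 9.21%). They overlap in the si-Ctrl list (2.24 to 5.44% and 4.96 to 7.87%). GC content was not held equal in this comparison.

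The peaks over miRNA genes were wider and stronger than most peaks of their lists, and most summits lay outside the hairpin. A wide peak is more likely to overlap a hairpin, so greater width follows in part from how these peaks were taken. The width, strength and summit position to be had from random placement were not computed. In the si-CHAF1A list 161 peaks covered miRNA genes, with a median width of 680 bp against 340 bp for all peaks, and a median −log10 q of 19.6 against 8.5. In the si-Ctrl list 143 peaks did, with a median width of 605 bp against 327 bp and a median −log10 q of 28.4 against 9.82. The whole hairpin lay under the peak for 140 miRNA genes in the si-CHAF1A list and 127 in the si-Ctrl list. The summit fell inside the hairpin for only 25 in the si-CHAF1A list and 23 in the si-Ctrl list, and the median distance from summit to hairpin centre was 169 bp in the si-CHAF1A list and 145 bp in the si-Ctrl list.

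A larger part of these peaks was shared between the lists than of all peaks: 75.2% against 47.5% in the si-CHAF1A list, and 78.3% against 61.9% in the si-Ctrl list. Stronger peaks were shared more often throughout. Among the strongest 24413 peaks of the si-CHAF1A list, 92 of the 93 peaks over miRNA genes were shared (98.9%), where 91.5% of all of them were. Among the strongest 19078 of the si-Ctrl list, 81 of 85 were shared (95.3%), where 91.4% of all were. These sets hold most of the peaks over miRNA genes, and there the share was near that of all peaks. In the 3 weaker classes of equal size the counts were small and the shares went both ways. Among si-CHAF1A peaks they were, weakest class first, 7 of 14 (all peaks 16.9%), 4 of 23 (29.5%) and 18 of 31 (52.3%). Among si-Ctrl peaks they were 3 of 13 (34.5%), 8 of 19 (51.2%) and 20 of 26 (70.4%).

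Where both lists had a peak over a miRNA gene, the ratio of the fold enrichments, si-CHAF1A over si-Ctrl, had a median of 0.84, and 97 of 114 miRNA genes were below 1 (85.1%). Over all 46416 pairs of overlapping peaks the median ratio was 0.88 with 74.4% below 1, and for 40 host genes whose strongest peaks overlap it was 0.86 with 31 below 1 (77.5%). The lower fold enrichment in the si-CHAF1A list was therefore seen over peaks in general and not at miRNA genes alone.

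**Figure D3:**
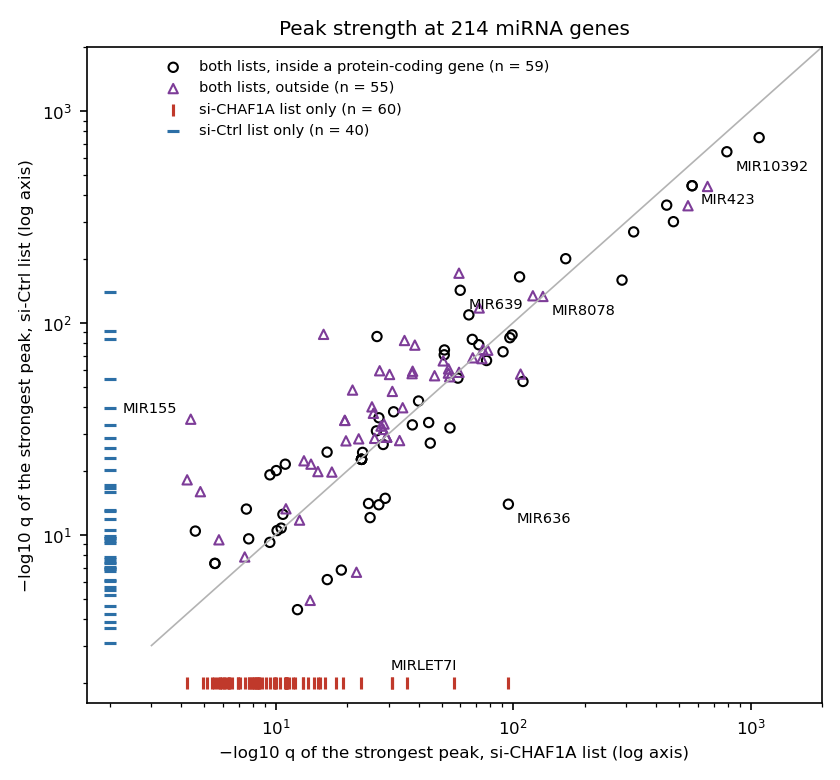
Strength of the strongest peak over each of 214 miRNA genes as −log10 q, si-CHAF1A list on the horizontal axis and si-Ctrl list on the vertical axis, both logarithmic. Circles are miRNA genes inside and triangles outside protein-coding genes with a peak in both lists (114 in all), ticks along the axes are the 60 found in the si-CHAF1A list only and the 40 found in the si-Ctrl list only, and the grey line marks equal values; the strongest hairpins of both lists lie near the line, and most of those in one list only are weak.

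Most of the strongest peaks over miRNA genes inside protein-coding genes lay near a gene start. MIR4523, in TAOK1, which encodes a protein kinase, lay 229 bp from the TAOK1 start under peaks of 14.8-fold enrichment in the si-CHAF1A list and 16.6-fold in the si-Ctrl list. The −log10 q was 1087 in the si-CHAF1A list and 748 in the si-Ctrl list. MIR10392, 55 bp from the start of EHD1, an endocytic recycling gene, had peaks of 10.3-fold in the si-CHAF1A list and 12.4-fold in the si-Ctrl list. Both intervals began at the same base and reached beyond the hairpin on either side.

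MIR423 and MIR3184 lay 309 and 307 bp from the start of NSRP1, a splicing regulator gene, under one peak. It spanned chr17:30116461-30117447 in the si-CHAF1A list, with 16.2-fold enrichment, and chr17:30116516-30117340 in the si-Ctrl list, with 19.1-fold. These were the highest fold enrichments over any miRNA gene in the 2 lists. The hairpins overlap by 75 bp on opposite strands, and the 5p miRNAs of both have the seed GAGGGGC, as the sequences above show. Reads without strand cannot be assigned to one of the pair.

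MIR933, in ATF2, the gene of a stress-response transcription factor, had peaks of 10.1-fold in the si-CHAF1A list and 11.5-fold in the si-Ctrl list, with a −log10 q of 444 in the si-CHAF1A list and 359 in the si-Ctrl list; the start of ATF2 was not used here. MIR1908, in the fatty acid desaturase gene FADS1 and 1003 bp from the start of its neighbour FADS2, had 8.92-fold in the si-CHAF1A list and 9.26-fold in the si-Ctrl list. The seed of miR-1908-5p, GGCGGGG, is also that of miR-663a, whose hairpin on chromosome 20 had weaker peaks of 4.74-fold in the si-CHAF1A list and 6.03-fold in the si-Ctrl list. MIR762, opposite in strand to BCL7C and 133 bp from its start, had 7.48-fold in the si-CHAF1A list and 7.41-fold in the si-Ctrl list. In each of these genes the peaks of the 2 lists overlapped.

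A few hairpins lay far from the line of equal strength. MIR636, in the splicing factor gene SRSF2, had a −log10 q of 95.5 in the si-CHAF1A list (5.19-fold, 262 reads over a background of 49.7) and 13.9 in the si-Ctrl list (2.79-fold, 87 reads over 30.6). MIR639, 3 bp from the start of TECR, a gene of fatty acid elongation, and also inside the annotated DNAJB1 gene, went the other way, with 59.9 in the si-CHAF1A list (6.07-fold, 141 reads over 22.4) and 142 in the si-Ctrl list (9.63-fold, 236 reads over 23.6). Both were picked for their place in the plot of peak strength, and neither difference has a replicate check.

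Outside protein-coding genes, 3 of the 6 strongest calls lay beside known starts. MIR4470, on chromosome 8, had 13.7-fold in the si-CHAF1A list and 13.2-fold in the si-Ctrl list, and a −log10 q of 659 in the si-CHAF1A list and 440 in the si-Ctrl list. MIR3678, 437 bp from the start of GRB2, the adaptor of growth factor receptors, had 10.6-fold in the si-CHAF1A list and 11.03-fold in the si-Ctrl list. MIR4449, 320 bp from the start of the lncRNA gene DANCR, had 9.0-fold in the si-CHAF1A list and 10.5-fold in the si-Ctrl list. MIR6125, 2 bp from the start of the ubiquitin protease gene USP15, had 8.51-fold in the si-CHAF1A list and 9.11-fold in the si-Ctrl list. MIR3610, on chromosome 8, had 8.7-fold in the si-CHAF1A list and 9.61-fold in the si-Ctrl list. The distance of the 2 genes on chromosome 8 to a start was not used here. At these 5 genes both values were far above the medians of peaks over miRNA genes, 3.68-fold in the si-CHAF1A list and 4.85-fold in the si-Ctrl list.

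The sixth, MIR8078, lies near one end of chromosome 18, 38758 bp from the nearest start. Its peaks reached a −log10 q of 134 in the si-CHAF1A list and 133 in the si-Ctrl list with only 2.28-fold enrichment in the si-CHAF1A list and 2.58-fold in the si-Ctrl list. The local background under them was 515 reads in the si-CHAF1A list and 357 reads in the si-Ctrl list, far above the most frequent background of each list. The copies of MIR3648 and MIR6724 on chromosome 21 stood on high background too: the MIR6724-1 peak had 355 reads over a background of 137 in the si-CHAF1A list and 479 reads over 189 in the si-Ctrl list. In all, 32 of 164 miRNA genes in the si-CHAF1A list and 24 of 146 in the si-Ctrl list had a local background at least 5 times the most frequent one. Fold enrichment was not low at all of these: MIR3652 was among them in both lists, with 7.56-fold in the si-CHAF1A list and 9.64-fold in the si-Ctrl list. The share of all peaks on such a background was not computed, so these counts are not read as particular to miRNA genes.

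Calls in one list only were mostly weak, and the strongest were often peak borders that stopped short of the hairpin in the other list. Of the 60 miRNA genes covered in the si-CHAF1A list only, 19 lay under a peak that a si-Ctrl peak overlapped elsewhere, and 41 lay under a peak absent from the si-Ctrl list. Their median −log10 q was 8.67. Of the 40 covered in the si-Ctrl list only, 8 lay under a shared peak and 32 did not, and the median −log10 q was 9.48.

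Among hairpins inside genes, MIR6737 in SLC39A1, a zinc transporter gene, had a si-CHAF1A peak of 4.56-fold and −log10 q 95.1, and the nearest si-Ctrl peak lay 282 bp away. MIR4767, in STS, the steroid sulfatase gene, had a si-CHAF1A peak of 7.32-fold, and a si-Ctrl peak came within 6 bp of it. MIR3190 and MIR3191, overlapping hairpins in the apoptosis gene BBC3, shared a si-CHAF1A peak of 2.98-fold, with a si-Ctrl peak 113 bp from MIR3190. In the si-Ctrl list only, MIR3181 in CYLD, a deubiquitinase gene, had a peak of 10.2-fold, and a si-CHAF1A peak lay 168 bp away. MIR584 in SH3TC2 had 7.09-fold with a si-CHAF1A peak 68 bp away, and MIR589 in FBXL18 had 4.37-fold with one 84 bp away. These 7 hairpins therefore lay at the edge of a peak that both lists had.

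MIR4428 differed from them. It lies deep in RYR2, the gene of a calcium channel of heart muscle, and had a si-Ctrl peak of 6.61-fold (48 reads over a background of 6.41) that no si-CHAF1A peak overlapped; the nearest was 6075 bp away.

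Outside genes, MIRLET7I was covered in the si-CHAF1A list only, by a peak of 6.17-fold and −log10 q 35.8. The si-Ctrl peak at the same start had 6.04-fold and ended 26 bp short of the hairpin, so the start of its host had a peak of nearly equal fold enrichment in both lists. MIR4521 was covered in the si-Ctrl list only (5.3-fold, −log10 q 139), with a si-CHAF1A peak 9 bp away, and MIR3648-1 likewise (2.45-fold), with one 112 bp away. Peaks without a partner lay over MIR4478 in the si-CHAF1A list (2.64-fold) and over the neighbours MIR144 and MIR4732, which share a si-CHAF1A peak of 2.76-fold. miR-144 is known from red blood cell precursors. The nearest si-Ctrl peak was 729 bp from MIR144.

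MIR3615, 28 bp from the start of NHERF1, a scaffold protein gene of epithelial membranes, had a si-Ctrl peak of 4.39-fold with no si-CHAF1A peak within 1207 bp. MIR155, the hairpin of an miRNA raised in inflammation and in many tumours, had the strongest call without a partner. Its si-Ctrl peak at chr21:25573840-25574139 had 66 reads over a background of 6.54, which is 8.89-fold with a −log10 q of 39.5. No si-CHAF1A peak lay within 33299 bp. There is 1 list per group, so whether this peak differs between the groups beyond the spread of samples was not tested.

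**Figure D4:**
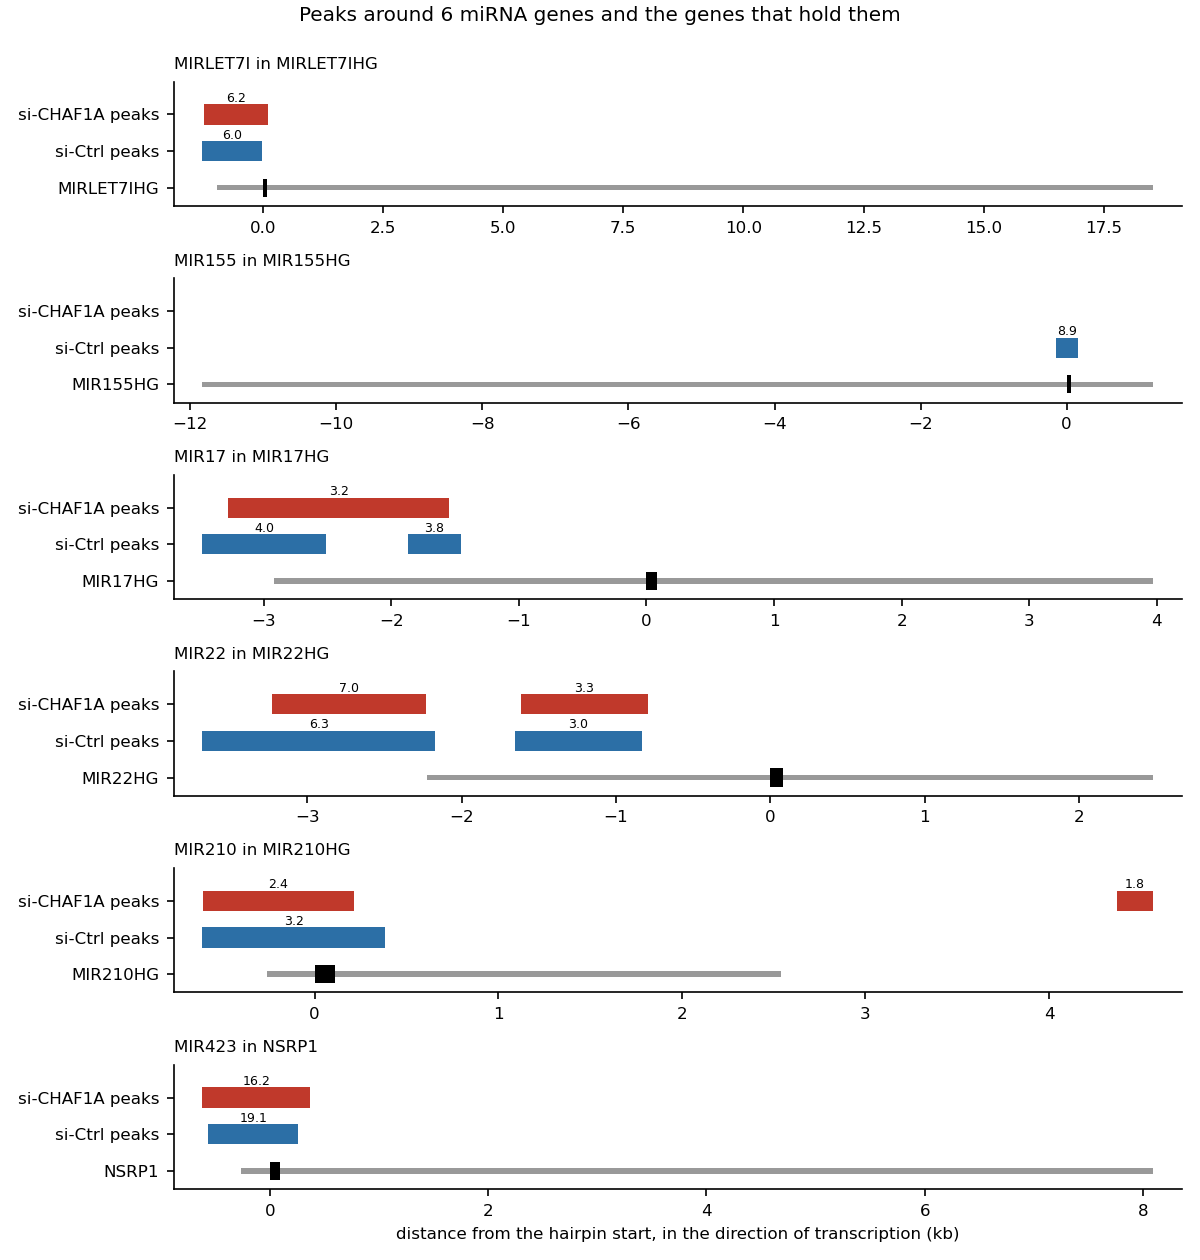
Peaks around 6 miRNA genes, in kb from the start of the hairpin in the direction of transcription of the gene that holds it. In each panel the upper row shows si-CHAF1A peaks, the middle row si-Ctrl peaks (number above each bar is the fold enrichment) and the lower row the gene in grey, cut on the right for NSRP1, with the hairpin in black; peaks cover the MIR423 and MIR210 hairpins in both lists, the MIRLET7I hairpin in the si-CHAF1A list only and the MIR155 hairpin in the si-Ctrl list only, and lie upstream of MIR17 and MIR22.

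By family, the best known miRNAs were rarely covered at the hairpin. Of the 12 let-7 genes, whose miRNAs restrain growth genes, 1 had a peak in the si-CHAF1A list (MIRLET7I) and 0 in the si-Ctrl list. Of 15 genes of the miR-17-92 clusters, which promote growth, 1 had a peak in the si-CHAF1A list and 0 in the si-Ctrl list. That one was MIR25 in MCM7, a replication helicase gene, with 2.25-fold enrichment and a −log10 q of 8.79. Of 6 miR-30 genes, MIR30C2 had a si-CHAF1A peak of 2.86-fold, overlapped by a si-Ctrl peak that lay 140 bp from the hairpin. The 6 miR-15/16, 4 miR-29, 6 miR-23/27/24 and 3 miR-34 genes had 0 calls in either list. With 9.1% of all miRNA genes called in the si-CHAF1A list and 8.05% in the si-Ctrl list, lists of this size hold few called members in any case.

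Few genes listed as tissue markers had a peak. The 7 genes of the miR-200 and epithelial group, whose miRNAs keep epithelial cells from changing to a mesenchymal state, had 0 in both lists. RBE is a line of epithelial origin. Of all miRNA genes 9.1% had a peak in the si-CHAF1A list and 8.05% in the si-Ctrl list, so 0 of 7 does not stand apart. The 25 miRNA genes listed for other cell types (blood, neurons, muscle, fibroblasts, endothelium and pluripotent cells) also had 0 in both lists. Within 1 kb of the hairpin, 3 of these 25 had a peak in the si-CHAF1A list and 2 in the si-Ctrl list, where 471 (si-CHAF1A) and 398 (si-Ctrl) of all 1913 miRNA genes had one. The list is not complete: MIR144, of red blood cell precursors, is not on it and had the si-CHAF1A peak described above. A count of 0 here is a count of peaks over hairpins and does not measure the RNA. Of 19 genes linked to liver and biliary biology, 1 was called in the si-CHAF1A list and 2 in the si-Ctrl list: MIR210, a target of the hypoxia response, in both (2.4-fold in the si-CHAF1A list, 3.17-fold in the si-Ctrl list), and MIR155 in the si-Ctrl list.

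Of the large miRNA clusters listed, those of chromosome 19, Xq27 and 14q32 were almost without peaks over their hairpins, where 9.1% of all miRNA genes had one in the si-CHAF1A list and 8.05% in the si-Ctrl list. The 50 genes of the chromosome 19 cluster, active in placenta, had 0 in both lists, and the median distance to a peak was 45750 bp in the si-CHAF1A list and 45879 bp in the si-Ctrl list. The 15 genes of the Xq27 cluster had 0 in both lists. Of 53 genes of the imprinted 14q32 cluster, 2 had a peak in the si-CHAF1A list, MIR337 (2.53-fold) and MIR377 (3.12-fold), neither overlapped by a si-Ctrl peak, and 0 had one in the si-Ctrl list. The −log10 q of these was 7.74 (MIR337) and 8.08 (MIR377), below the median of all si-CHAF1A peaks.

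Some miRNAs are made without DROSHA, from short introns (mirtrons) or from capped transcripts at a gene start. Of 12 genes listed for these routes, 3 had a peak in the si-CHAF1A list and 2 in the si-Ctrl list, where 9.1% (si-CHAF1A) and 8.05% (si-Ctrl) of all miRNA genes had one. MIR320A had 7.21-fold in the si-CHAF1A list and 7.78-fold in the si-Ctrl list. MIR484, 49 bp from the start of NDE1, a centrosome gene, had 5.04-fold in the si-CHAF1A list and 5.91-fold in the si-Ctrl list. MIR1238 had a si-CHAF1A peak of 3.47-fold, overlapped by a si-Ctrl peak that lay 636 bp from the hairpin.

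miRNAs present in several near-identical copies cannot always be told apart by reads. MIR3180 has 5 copies on chromosome 16, and all 5 had a peak in both lists, at 3.48- to 4.25-fold in the si-CHAF1A list and 5.06- to 7.02-fold in the si-Ctrl list. All 5 values of the si-CHAF1A list lay below those of the si-Ctrl list. The seed of miR-3180-3p, GGGGCGG, returns in miR-3196 from BIRC7 on chromosome 20, which had a peak in the si-CHAF1A list only (2.3-fold). The 5 MIR941 copies in DNAJC5 lay under one peak, of 4.03-fold in the si-CHAF1A list and 4.82-fold in the si-Ctrl list, and so count as one site. Of 182 miRNA genes with further copies, 21 had a peak in each list (11.5%), close to 8.84% of the 1731 without copies in the si-CHAF1A list and 7.68% in the si-Ctrl list.

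Of the 87 host genes, 85 hold at least one miRNA gene, 142 in all. Host genes are far longer than hairpins and had a peak far more often. Of the 87 host genes, 58 had a peak in the si-CHAF1A list (66.7%, interval 55.7 to 76.4%) and 56 in the si-Ctrl list (64.4%, interval 53.4 to 74.4%), and 52 in both. Of 18216 other lncRNA genes, 46.8% had a peak in the si-CHAF1A list and 42.0% in the si-Ctrl list. Host genes differ from other lncRNA genes in length, so the comparison was also made within classes of length. Under 10 kb, 61.1% of 36 host genes had a peak in the si-CHAF1A list and 50% in the si-Ctrl list, against 40% (si-CHAF1A) and 35.9% (si-Ctrl) of other lncRNA genes. From 10 to 50 kb, 80.8% of 26 had one in each list, against 50% (si-CHAF1A) and 44.1% (si-Ctrl). Above 50 kb, 60.0% of 25 had one in the si-CHAF1A list and 68.0% in the si-Ctrl list, against 67.5% (si-CHAF1A) and 62.4% (si-Ctrl). Host genes of 10 to 50 kb thus stood above other lncRNA genes beyond counting error in both lists (interval 60.6 to 93.4%), those under 10 kb in the si-CHAF1A list alone (43.5 to 76.9%; si-Ctrl 32.9 to 67.1%), and those over 50 kb in neither.

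In one list only, 6 host genes had a peak in the si-CHAF1A list (6.9%) and 4 in the si-Ctrl list (4.6%), where 10.7% (si-CHAF1A only) and 5.81% (si-Ctrl only) of other lncRNA genes had. These shares are near or below the background and, by the intervals of 2.57 to 14.4% in the si-CHAF1A list and 1.27 to 11.4% in the si-Ctrl list, do not stand apart from it.

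**Figure D5:**
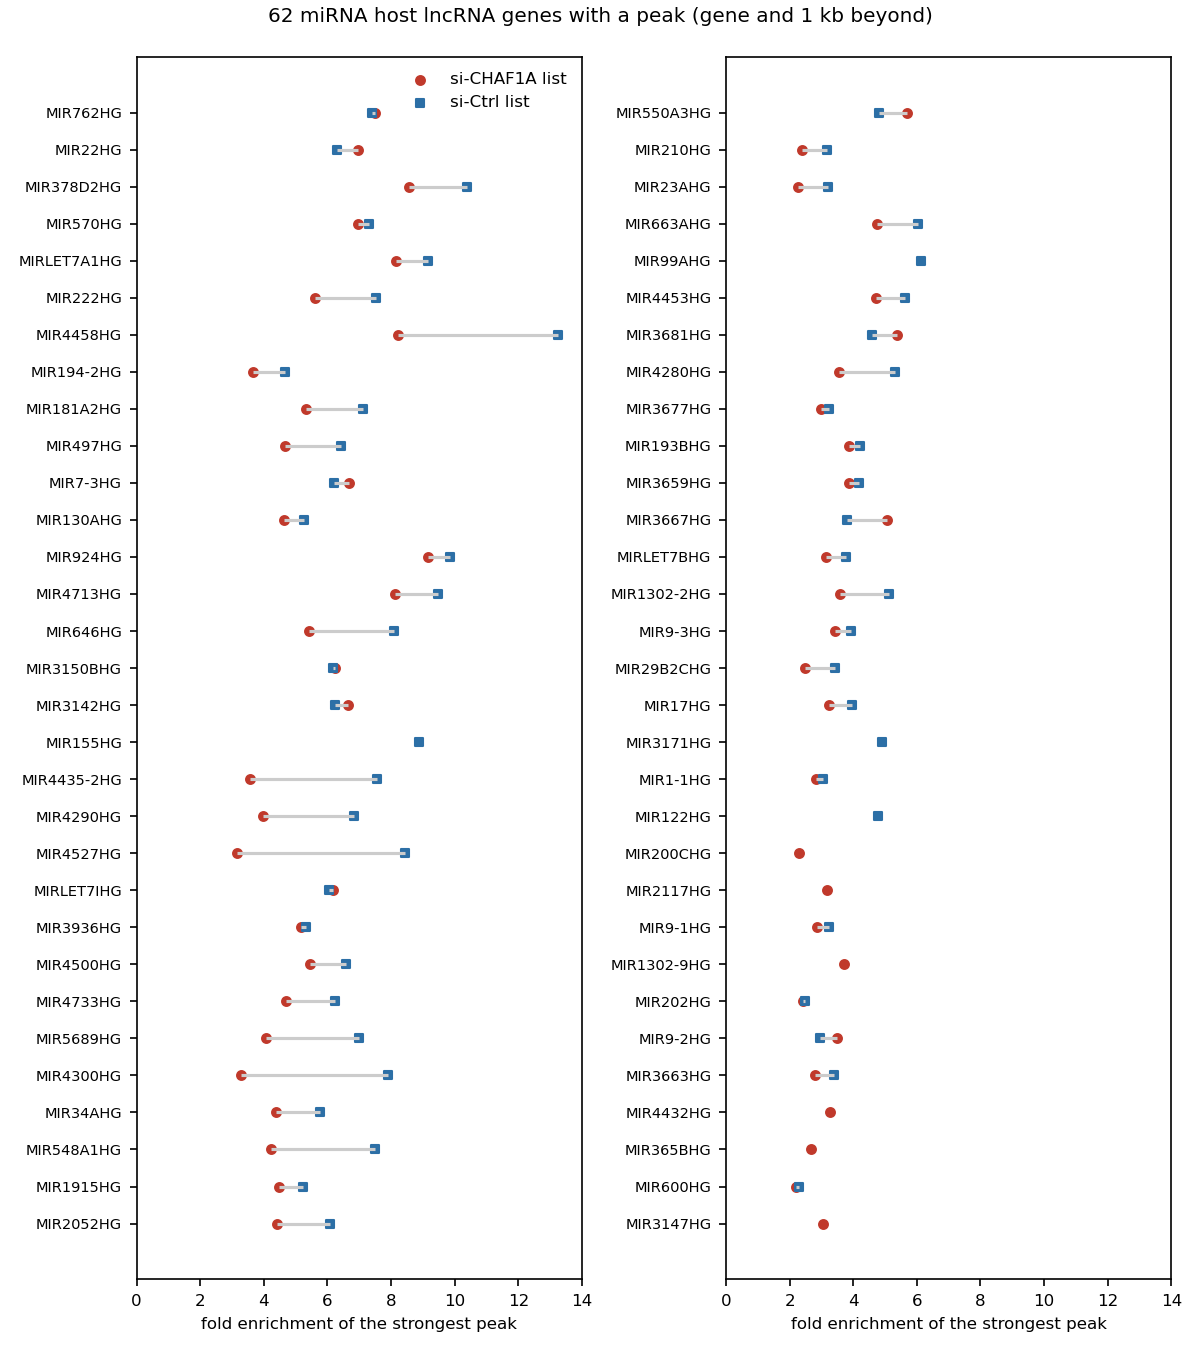
Fold enrichment (horizontal axis) of the strongest peak at each of the 62 host lncRNA genes with a peak in either list, ordered by the higher −log10 q of the 2 lists. Circles are the si-CHAF1A list and squares the si-Ctrl list, joined by a line where both have a peak. Of the 52 genes that carry both symbols, 40 have strongest peaks that overlap. In the others the line joins values of different sites. Among the strongest, MIR762HG and MIR22HG have nearly equal values.

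Of the host genes called in both lists, MIR762HG had its strongest peak over the MIR762 hairpin, with the values given above. MIR378D2HG had the highest fold enrichment among the 8 with the strongest calls, 8.55-fold in the si-CHAF1A list and 10.4-fold in the si-Ctrl list. MIR22HG, host of a miRNA that restrains growth, had 6.97-fold at its start in the si-CHAF1A list and 6.31-fold in the si-Ctrl list, and a second peak between the start and the hairpin. MIRLET7A1HG, which holds let-7a-1 and neighbouring let-7 hairpins, had 8.14-fold at its start in the si-CHAF1A list and 9.15-fold in the si-Ctrl list. MIR194-2HG, host of miR-192 and miR-194, which are abundant in liver and gut, had 3.65-fold in the si-CHAF1A list and 4.68-fold in the si-Ctrl list, with the strongest peak at opposite ends of the gene in the 2 lists. MIR222HG, host of miR-221 and miR-222, had 5.62-fold at its start in the si-CHAF1A list and 7.53-fold in the si-Ctrl list. MIR570HG had 6.95-fold in the si-CHAF1A list and 7.32-fold in the si-Ctrl list, and MIR497HG had 4.68-fold in the si-CHAF1A list and 6.44-fold in the si-Ctrl list, beyond its 3′ end. Most of these values were lower in the si-CHAF1A list, as for peaks in general.

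The 4 strongest calls at host genes in the si-CHAF1A list only had a −log10 q of 6.32 to 11.68, where the median of all si-CHAF1A peaks was 8.5. MIR200CHG, host of miR-200c and miR-141, had 2.28-fold (110 reads over 47.8) beyond its 3′ end, MIR2117HG had 3.18-fold, MIR1302-9HG 3.7-fold and MIR4432HG 3.27-fold. In the si-Ctrl list only, MIR155HG had the 8.89-fold peak over its hairpin described above. MIR99AHG, a long host that holds let-7c, had 6.13-fold, MIR3171HG 4.9-fold and MIR122HG, host of the hepatocyte miRNA miR-122, 4.77-fold (34 reads over 6.34). None of these 8 peaks was overlapped by a peak of the other list.

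Among the 25 host genes with no peak in either list were those of miRNAs known from other tissues: MIR142HG and MIR223HG of blood cells, MIR124-1HG and MIR124-2HG of neurons, MIR133A1HG of muscle and MIR302CHG of pluripotent cells. Other hosts of such miRNAs had peaks in both lists, so these genes do not fall on one side by tissue. MIR1-1HG, of muscle, had 4 peaks in each list, the strongest of 2.83-fold in the si-CHAF1A list and 3.05-fold in the si-Ctrl list. The hosts of the neuronal miR-9 genes, MIR9-1HG, MIR9-2HG and MIR9-3HG, had 5, 1 and 3 peaks in the si-CHAF1A list and 3, 1 and 2 in the si-Ctrl list. MIR200BHG and MIR205HG, hosts of epithelial miRNAs, were among those with no peak, as were MIR31HG, MIR100HG and MIR503HG.

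The start of a host, where its transcription begins, was covered more often than the hairpin. Strand was known for 69 host genes. Within 1 kb of the 5′ end, 31 of them had a peak in the si-CHAF1A list (44.9%, interval 32.9 to 57.4%) and 29 in the si-Ctrl list (42.0%, interval 30.2 to 54.5%). The same window held a peak at 29.7% of other lncRNA genes in the si-CHAF1A list and 27.6% in the si-Ctrl list, and at 61.2% (si-CHAF1A) and 58.7% (si-Ctrl) of protein-coding genes. In one list only, 4 host starts had a peak in the si-CHAF1A list (5.8%) and 2 in the si-Ctrl list (2.9%), near the background: 5.78% (si-CHAF1A only) and 3.7% (si-Ctrl only) of other lncRNA genes, and 7.0% (si-CHAF1A only) and 4.45% (si-Ctrl only) of protein-coding genes. For 123 miRNA genes in these hosts, the host start had a peak for 44 in each list (35.8%), while the hairpin had one for 7 in the si-CHAF1A list and 8 in the si-Ctrl list. For the 745 hairpins on the strand of a protein-coding gene, the start of that gene had a peak for 533 in the si-CHAF1A list (71.5%) and 531 in the si-Ctrl list (71.3%), and the hairpin for 64 in the si-CHAF1A list and 50 in the si-Ctrl list. The 672 protein-coding genes that hold such hairpins had a peak at the start in 71.1% in the si-CHAF1A list and 72.5% in the si-Ctrl list, above the share of all protein-coding genes in both lists. In one list only it was 37 of them in the si-CHAF1A list (5.51%) and 46 in the si-Ctrl list (6.85%). Only the presence of a peak is meant here: the shorter hairpin offers less room for one.

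The promoters of 4 hosts are given as examples, the first 3 with a peak in both lists and the last with none. Each is the RefSeq sequence on GRCh38.p14 from 250 bases before to 50 after the start, on the strand of the gene. Capitals mark GGGCGG (the GC box), CCAAT and TATAAA on either strand, so the other strand shows their reverse complements; neighbouring GC boxes may overlap and were then counted each.
MIRLET7IHG, chr12:62602493-62602792, plus strand: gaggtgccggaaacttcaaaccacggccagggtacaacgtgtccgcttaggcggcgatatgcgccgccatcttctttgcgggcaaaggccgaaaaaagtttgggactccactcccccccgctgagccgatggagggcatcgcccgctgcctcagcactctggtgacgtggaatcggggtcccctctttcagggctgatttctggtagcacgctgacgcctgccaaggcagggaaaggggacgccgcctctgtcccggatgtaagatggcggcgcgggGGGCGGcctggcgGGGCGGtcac
MIR17HG, chr13:91347437-91347736, plus strand: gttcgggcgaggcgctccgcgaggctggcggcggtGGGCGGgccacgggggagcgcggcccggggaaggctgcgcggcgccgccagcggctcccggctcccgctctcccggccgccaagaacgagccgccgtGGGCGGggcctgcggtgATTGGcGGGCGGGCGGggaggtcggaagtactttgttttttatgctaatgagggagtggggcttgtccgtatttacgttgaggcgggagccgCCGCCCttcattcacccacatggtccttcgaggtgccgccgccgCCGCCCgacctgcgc
MIR22HG, chr17:1716161-1716460, minus strand: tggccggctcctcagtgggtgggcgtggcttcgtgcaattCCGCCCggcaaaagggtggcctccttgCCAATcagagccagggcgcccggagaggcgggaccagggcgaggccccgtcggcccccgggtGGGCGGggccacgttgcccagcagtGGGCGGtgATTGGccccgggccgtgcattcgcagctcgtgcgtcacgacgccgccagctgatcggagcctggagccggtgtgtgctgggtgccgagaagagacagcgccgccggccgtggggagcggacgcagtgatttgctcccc
MIR155HG, chr21:25561895-25562194, plus strand: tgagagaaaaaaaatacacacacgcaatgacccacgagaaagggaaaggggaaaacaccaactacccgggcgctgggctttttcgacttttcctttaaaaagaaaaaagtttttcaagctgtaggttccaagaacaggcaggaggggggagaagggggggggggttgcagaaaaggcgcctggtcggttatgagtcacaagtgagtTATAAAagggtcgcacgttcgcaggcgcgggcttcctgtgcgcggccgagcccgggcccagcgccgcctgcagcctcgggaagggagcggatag
The first 3 have GC contents of 65.0, 73.0 and 72.3% with 27, 42 and 32 CpG dinucleotides, and hold 2, 6 and 3 GC boxes. The MIR155HG promoter has 56.0% GC and 20 CpG dinucleotides, no GC box or CCAAT, and 1 TATAAA. Over all 27305 promoters of this length, GGGCGG was found in 44.6%, CCAAT in 35.7% and TATAAA in 12%. A match is a run of letters and no evidence of a bound factor.

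Over all 69 host promoters, the 26 overlapped by a peak in either list had a median GC content of 66.0% and 26 CpG dinucleotides, and the 43 without one 53.0% and 9. Other lncRNA promoters showed the same order, with 64% and 22 where there was a peak, and 46.3% and 3 where there was none. A GC box was found in 53.8% of host promoters with a peak and 27.9% of those without. The link of GC-rich promoters with a peak is thus not particular to miRNA hosts. Nor does it hold for every host. The MIR31HG promoter, with 77.7% GC and 39 CpG dinucleotides, had no peak in either list. The MIR4500HG promoter, with 46.7% GC and 5 CpG dinucleotides, had a peak in both lists.

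At MIR17HG, host of the miR-17-92 cluster, the si-CHAF1A list had one peak of 3.23-fold across the host start, from -3281 to -1545 bp relative to the start of the MIR17 hairpin. The si-Ctrl list had a pair there, of 3.97-fold and 3.76-fold. At MIR210HG one peak covers the start and the hairpin in both lists. In MIR155HG the si-Ctrl peak over the hairpin was the only one in either list, and the host start, at -11835 bp, had none. The map of these loci shows both arrangements: hairpins inside a start-site peak and hairpins downstream of one.

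Of the 35 genes that make, export, load or turn over miRNAs, 33 had a peak within 1 kb of either gene end in the si-CHAF1A list and 30 in the si-Ctrl list. Among all protein-coding genes 64.3% had one in the si-CHAF1A list and 61.1% in the si-Ctrl list. The nuclear processing genes DROSHA (3.86-fold in the si-CHAF1A list, 7.05-fold in the si-Ctrl list) and DGCR8 (8.04-fold in the si-CHAF1A list, 6.76-fold in the si-Ctrl list) had one in both. So did the export receptor gene XPO5 (7.39-fold in the si-CHAF1A list, 7.42-fold in the si-Ctrl list) and DICER1 (5.94-fold in the si-CHAF1A list, 6.09-fold in the si-Ctrl list). AGO1 and AGO3, which lie end to start, share one peak of 5.0-fold in the si-CHAF1A list and 5.95-fold in the si-Ctrl list.

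The strongest calls on that list, by the −log10 q of whichever list had the higher one, were SRRT, which links capped RNA to processing (7.48-fold in the si-CHAF1A list, 8.48-fold in the si-Ctrl list), KHSRP, a let-7 processing cofactor (4.99-fold in the si-CHAF1A list, 8.67-fold in the si-Ctrl list), CNOT1, the deadenylase scaffold (9.88-fold in the si-CHAF1A list, 12.3-fold in the si-Ctrl list), and DDX5, a DROSHA cofactor (8.38-fold in the si-CHAF1A list, 10.6-fold in the si-Ctrl list). ADAR, AGO2 and AGO4 had one in the si-CHAF1A list only, at 2.78-fold, 2.46-fold and 4.02-fold, and 0 had one in the si-Ctrl list only. Of all protein-coding genes, 8.07% had one in the si-CHAF1A list only and 4.9% in the si-Ctrl list only. The AGO4 peak was overlapped by a si-Ctrl peak outside the window. LIN28B and TNRC6A had none in either list.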

How the data were processed

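The data were 2 deposited CUT&Tag peak lists, 1 per group of 2 samples. The list whose name holds si was taken for si-CHAF1A and the one whose name holds NC for si-Ctrl, which the sample titles match only in part. Pooling of samples and the use of a control library are not given in the sources used here. Per the submitters' processing notes the build was hg38 and the tools included MACS2 2.1.2, Bowtie2 2.2.5, fastp 0.20.1 and deepTools 3.4.3. In the deposited lists each peak has a fold enrichment, which is a linear ratio, and its p and q as −log10 values. The lowest −log10 p was 5. The deposited score equals 10 times the −log10 p and was not used.

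On sequences other than the main chromosomes, 886 si-CHAF1A and 868 si-Ctrl peaks were set aside. Summit reads and local background were solved from the fold and the Poisson p that MACS2 computes, for peaks with −log10 p under 290; other peaks have none. Genes, hairpins, strands and promoters came from NCBI RefSeq tables of GRCh38.p14. Hairpin sequence and strand were matched for 1560 of 1913 miRNA genes, and strand for 69 of 87 host genes, 15843 of 20037 protein-coding and 11462 of 18303 lncRNA genes. A miRNA gene had a peak when overlapped by at least 1 bp; windows were all positions of the median hairpin length. Positions count from 1.

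The members, gene lists and rule for named genes were chosen with earlier results of these data known. The rule took, inside and outside protein-coding genes, the 6 miRNA genes with the highest lower −log10 q of the 2 lists and up to 4 per list with a peak in that list only. It took 8 and 4 such host genes, and up to 4 strongest and 3 one-list members of each gene list. MIR636, MIR639, MIR762, MIR663A, MIR3180, MIR3196, MIR941, MIR6724-1 and the hosts without a peak were named outside it, after their values were seen, as were MIR3652, MIR17HG, MIR210HG, MIRLET7IHG, MIR1-1HG, the miR-9 hosts, DROSHA, DGCR8, XPO5, DICER1, AGO1, AGO3, LIN28B and TNRC6A. Comparisons by GC content, distance class, name number and promoter were described with values in view.

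With 1 list per group no test was made. The peak overlap and the solving step were checked on simulated data and against bedtools 2.31.1. Alternatives were equal numbers of peaks, other margins, summits, thresholds, strands, reciprocal overlap and 5′ ends, and, added after seeing the data, leaving out copies and hairpins near starts. The software was scipy 1.17.1, pandas 2.3.3, numpy 2.4.6 and matplotlib 3.10.9, run in Python 3.11.15.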

Additional observations from a re-analysis of the deposited data

How the results depend on the processing

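Of 105 counts recomputed under an alternative, 74 stayed within 1.5 times the count given and 31 did not. Counting only summits inside the hairpin gave 25 miRNA genes in the si-CHAF1A list (12 inside and 13 outside protein-coding genes) and 23 in the si-Ctrl list (10 inside and 13 outside). It left 17 in the si-CHAF1A list only, 15 in the si-Ctrl list only and 14 with a start within 1 kb. A margin of 1 kb gave 471 in the si-CHAF1A list (310 inside and 161 outside) and 398 in the si-Ctrl list (247 inside and 151 outside), 150 in the si-CHAF1A list only, 77 in the si-Ctrl list only and 126 near a start. A margin of 200 bp gave 158 inside in the si-CHAF1A list. Requiring the strand of the gene gave 64 inside in the si-CHAF1A list, 50 inside in the si-Ctrl list and 110 outside in the si-CHAF1A list. At a −log10 q of at least 10, 30 remained in the si-CHAF1A list only and 23 in the si-Ctrl list only. Leaving out hairpins known to lie within 1 kb of a start was chosen after seeing the data. It gave 110 with a peak in the si-CHAF1A list and 93 in the si-Ctrl list. Of these, 47 in the si-Ctrl list lay inside, and 40 in the si-CHAF1A list and 46 in the si-Ctrl list outside. Hairpins without a distance, such as those on chromosome 8, stay in these counts. Host 5′ ends alone gave 31 in the si-CHAF1A list and 29 in the si-Ctrl list. Each of these alternatives, apart from the threshold on −log10 q, changes by construction how much sequence or how many genes can be counted. The threshold drops weaker peaks instead. With it the counts in one list only fell from 60 to 30 (si-CHAF1A) and from 40 to 23 (si-Ctrl).

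No paired analysis was possible because each list holds its group as a whole and keeps no sample apart. For the same reason no fit with a replicate block was made and no replicate was left out.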
